A study of Saccharomyces cerevisiae with 8 samples.

Results

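Mitochondrial ribosomal protein genes were examined in budding yeast cells carrying the CDC34tm allele and in wild-type (WT) cells. Members were all S. cerevisiae genes on the array whose symbol was MRPL, MRPS or RSM followed by a number. The rule found 54 genes, each with 1 probe set, among 5449 S. cerevisiae genes measured. They were 34 large subunit genes (MRPL) and 20 small subunit genes (MRPS or RSM). Proteins of the same ribosome that carry other symbols were kept in separate lists.

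The mitochondrial ribosome makes the few proteins that mitochondrial DNA encodes, nearly all of them core subunits of the respiratory chain and the ATP synthase. Its RNAs come from mitochondrial DNA, but its proteins, apart from Var1 of the small subunit, are encoded in the nucleus, made in the cytosol and imported. Many descend from bacterial ribosomal proteins, and others were gained after the bacterial ancestor became an organelle. In S. cerevisiae the RNA-binding protein Puf3 binds many mRNAs of this group and promotes their decay, and the Hap2/3/4/5 complex activates genes of respiration.

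The study compared the CDC34tm strain (MATα, marked with the nourseothricin resistance gene NatR) with an isogenic WT strain (MATα). Cdc34 is the ubiquitin-conjugating enzyme of SCF ubiquitin ligases. Further variables in the labels are PST1, partly disrupted at its 3' end, and leu2-3, 112. The design text gives this allele for WT, but the labels name it for the samples of both strains, so which strain carries it is not settled. With 1 strain per genotype, the effects of CDC34tm, the marker, PST1 and leu2 cannot be told apart. The medium was synthetic and defined, with dextrose at 2%, glutamine at 0.25% and leucine at 25.2 mg/L, and the temperature was 30 °C. Each strain was grown as 4 separate cultures, with 1 array per culture.

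Arrays of 1 strain correlated at 0.981 or higher and arrays of different strains at 0.958 to 0.977 (log2 signals across genes). CDC34 mRNA did not pass the test (log2 fold change 0.01, limma adjusted p = 0.899), so its level does not check the strain labels. PST1 and LEU2 fell in CDC34tm (log2 fold changes -1.10 and -1.18, limma adjusted p = 7.34e-05 and 5.65e-05). Genes of α cells gave the signals of that mating type on all arrays: STE3, the a-factor receptor, read 5566 to 8818, and STE2, the α-factor receptor of a cells, 212 to 268. Background, taken as the 95th percentile of S. pombe probe sets on each array, was 12.3 to 14.6. Every one of the 54 genes exceeded it on all 8 arrays, the lowest signal being 390, and all 54 were tested.

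More of these genes were higher in CDC34tm than lower, by small amounts. Of the 54, 20 rose, 2 fell and 32 did not pass the test (limma on log2(signal + 16), Benjamini-Hochberg adjusted p under 0.05 over all probe sets). That is 37.0% of the members higher and 3.70% lower, against a background of 18.9% higher and 19.7% lower over all 5437 probe sets tested. With arrays centred on their median the background became 24.4% higher and 16.4% lower, and 26 members rose and 2 fell. The median log2 fold change was 0.14 over the members and 0.00 over all probe sets. The rises ran from 1.13-fold (MRPL23) to 1.59-fold (MRPL50). In bulk cultures, a change in RNA per cell and a change in the share of cells with the RNA cannot be told apart. The plot of fold changes by gene shows the whole range, from -0.68 to 0.67 on the log2 scale.

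**Figure D1:**
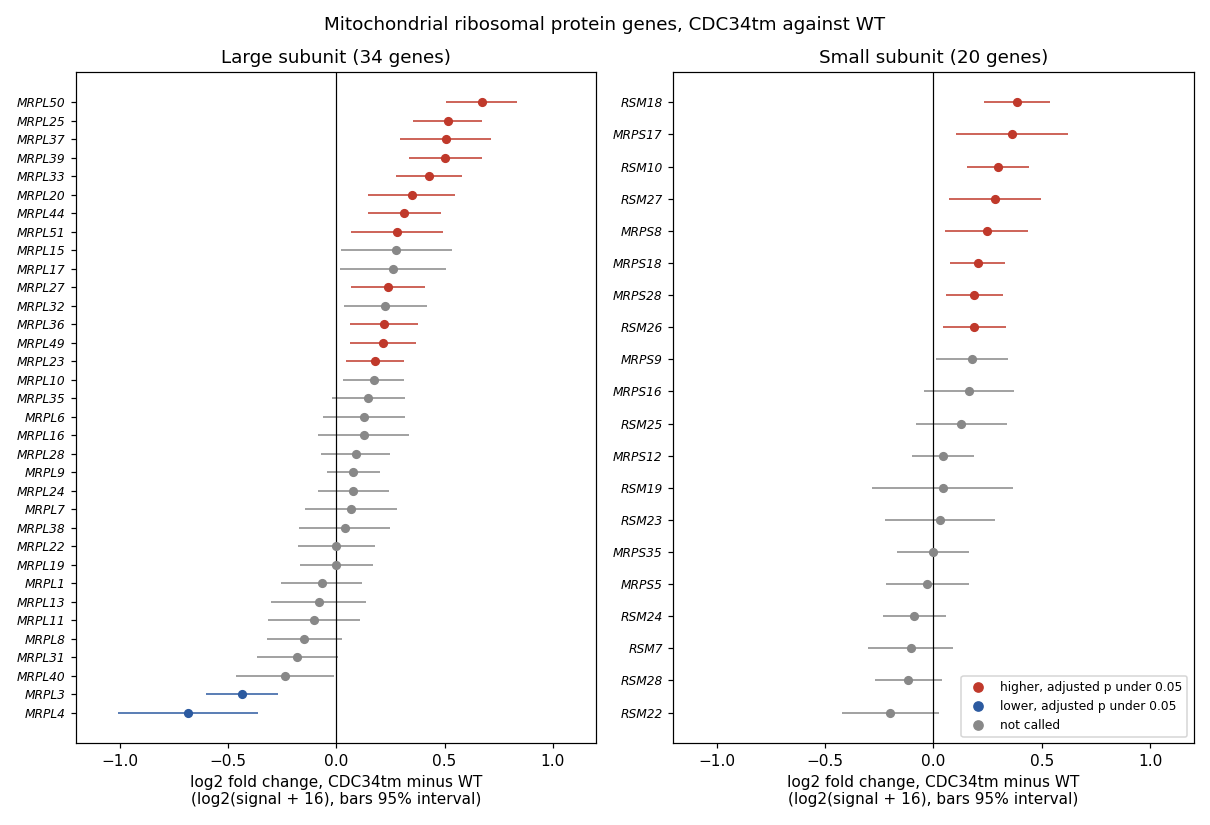
Log2 fold change of each of the 54 genes (x axis, CDC34tm minus WT, on log2(signal + 16)) with its 95% interval, large subunit on the left and small subunit on the right. Red marks the 20 genes that rose, blue the 2 that fell and grey the 32 that did not pass the test.

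The medians of the 2 subunits lay close together. In the large subunit 12 of 34 rose and 2 fell, with a median log2 fold change of 0.14, and in the small subunit 8 of 20 were higher and 0 lower, the median being 0.15. No small subunit gene was lower even at an unadjusted p under 0.05, a count of 0 in the same limma fit. The difference of the medians, large minus small, was -0.01 on the log2 scale. On single arrays the large subunit median minus the small subunit median lay between -0.02 and 0.02, both extremes included. No test of the subunits against each other was made, since genes are not replicates of a strain. The largest changes in both directions were in the large subunit.

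MRPL50, homologue of bacterial L9, had the largest rise. Its signal was 2190, 2231, 2100 and 2285 on CDC34tm replicates 1 to 4 and 1310, 1505, 1459 and 1247 on WT replicates 1 to 4. The lowest CDC34tm culture stood well above the highest WT culture. The means were 2202 ± 78.0 and 1380 ± 122 (SD, n = 4 each), a 1.59-fold rise (log2 fold change 0.67, SE 0.0734, limma adjusted p = 1.6e-04).

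MRPL25, which has no bacterial ribosomal counterpart, read 1696, 1762, 1511 and 1627 in CDC34tm and 1094, 1253, 1131 and 1124 in WT. It rose 1.43-fold (limma adjusted p = 6.16e-04), with no overlap between the strains. MRPL39, the homologue of bacterial L33 and the shortest gene of the group at 213 bp, read 2789, 3047, 2546 and 2987 in CDC34tm against 1885, 2134, 2100 and 1880 in WT. It rose 1.42-fold (limma adjusted p = 9.04e-04). MRPL37, another protein without a bacterial ribosomal counterpart, read 2573 ± 172 in mutant and 1817 ± 236 in WT cultures (SD, n = 4 per strain). It also rose 1.42-fold (limma adjusted p = 0.00281). MRPL33, homologue of bacterial L30, read 2551 ± 207 and 1889 ± 73.7 (SD, n = 4 per strain) and rose 1.35-fold (limma adjusted p = 0.00134). These 5 large subunit genes kept their call under all 19 alternatives tried.

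The next rises in the large subunit were those of MRPL20 (1.27-fold), MRPL44 (1.24-fold) and MRPL51 (1.22-fold), all without a bacterial ribosomal homologue. MRPL20 and MRPL44 stayed past the threshold without any single array, but both lost their call after the length correction given below (limma adjusted p = 0.0513 and 0.1003), and MRPL20 also without WT replicates 1 and 4 (limma adjusted p = 0.059). MRPL51 lost its call in 5 of the 8 omissions of 1 array. The other 4 large subunit rises were MRPL27, MRPL36, MRPL49 and MRPL23, with log2 fold changes of 0.24, 0.22, 0.22 and 0.18, and each lost its call in 5 or 6 of these omissions.

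**Figure D2:**
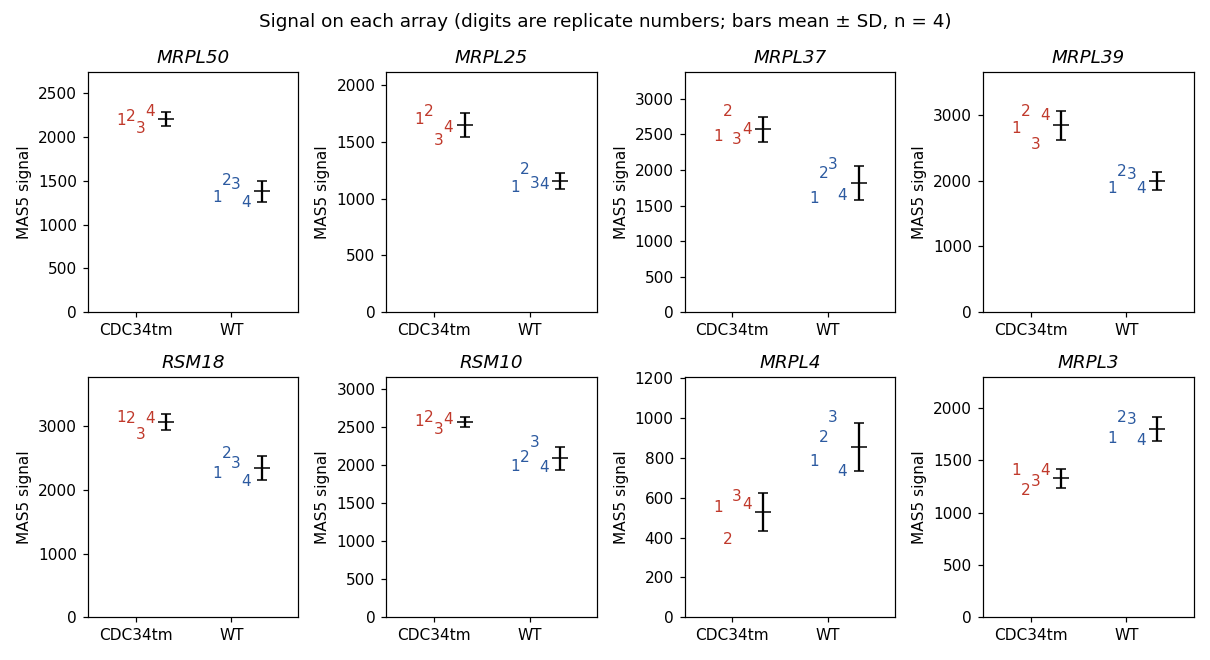
MAS5 signal (y axis, linear, from 0) of 8 genes on each array, with digits giving the replicate number in CDC34tm (red) and WT (blue) and bars giving the mean ± SD of 4 cultures. In the first 6 genes every CDC34tm culture lies above every WT culture, and in MRPL4 and MRPL3 every CDC34tm culture lies below.

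In the small subunit the largest rise was that of RSM18, homologue of bacterial S18. It read 3139, 3125, 2874 and 3116 in CDC34tm and 2260, 2566, 2417 and 2136 in WT. The strains did not overlap, and the rise was 1.31-fold (log2 fold change 0.39, SE 0.0683, limma adjusted p = 0.00217). RSM10, homologue of bacterial S10, read 2584, 2635, 2470 and 2598 in CDC34tm and 1983, 2100, 2306 and 1976 in WT. It rose 1.23-fold (limma adjusted p = 0.00558). RSM18 and RSM10 were the small subunit genes that kept their call under all 19 alternatives.

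The other 6 small subunit rises were less firm. MRPS17, homologue of bacterial S17, rose 1.29-fold, but its 4 CDC34tm signals, from 816 to 1008, overlapped the WT range of 597 to 824. RSM27 rose 1.22-fold and MRPS8, homologue of bacterial S8, 1.19-fold. MRPS18, whose bacterial homologue is S11, read 2134 ± 86.9 and 1851 ± 57.0 (SD, n = 4 per strain) and rose 1.15-fold (limma adjusted p = 0.0184). MRPS28, homologue of bacterial S15, and RSM26 each rose 1.14-fold. Of these 6, MRPS18 lost its call in 1 of the 8 omissions of a single array and the others in 5 to 7.

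MRPL4 and MRPL3 fell. MRPL4, homologue of bacterial L29, read 551, 390, 604 and 566 in CDC34tm and 783, 899, 1003 and 729 in WT. The means were 528 ± 94.4 and 853 ± 122 (SD, n = 4 each), a 1.61-fold fall (log2 fold change -0.68, SE 0.145, limma adjusted p = 0.00531), with CDC34tm replicate 2 the lowest. MRPL3, which carries a domain related to RNase III, read 1400, 1210, 1295 and 1398 in CDC34tm and 1707, 1910, 1885 and 1684 in WT. It fell 1.35-fold (log2 fold change -0.43, SE 0.0742, limma adjusted p = 0.0018). Both kept their call under all 19 alternatives.

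In the bacterial ribosome L29 lies beside L23, L22 and L24 around the exit of the tunnel through which the new chain leaves. This set was singled out after the value of MRPL4 had been seen. MRP20, the homologue of L23, read 704, 561, 753 and 628 in CDC34tm and 987, 1135, 1155 and 1008 in WT, and fell 1.61-fold (limma adjusted p = 8.01e-04). MRPL40, the homologue of L24, had a log2 fold change of -0.24 and did not pass the test (limma adjusted p = 0.0907). MRPL22, the homologue of L22, averaged 1243 ± 52.7 in mutant and 1246 ± 118 in WT cultures (SD, n = 4 per strain), with a log2 fold change of 0.00 (95% interval -0.18 to 0.18).

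Among the 32 genes not called, 15 had a log2 fold change within 0.1 of 0. MRPL19, homologue of bacterial L11 at the base of the factor-binding stalk, averaged 1180 ± 87.8 in mutant and 1178 ± 65.6 in WT cultures (SD, n = 4 per strain, 95% interval of the log2 fold change -0.17 to 0.17). MRPS35 had an interval of -0.17 to 0.16 and MRPS5 one of -0.22 to 0.16. The upper bounds lie near the size of the weakest rise. A further 6 of the 32 had an unadjusted p under 0.05: MRPL10, MRPL15, MRPL17, MRPL32 and MRPS9 on the higher side and MRPL40 on the lower. MRPL32, whose maturation by the m-AAA protease is a step in ribosome assembly, had a log2 fold change of 0.23 (limma adjusted p = 0.06).

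In the order of genes in the RefSeq R64 table, MRPS12 and RSM19 formed the 1 pair of members next to each other. MRPS12, homologue of the S12 of the decoding centre, averaged 4364 ± 280 in mutant and 4233 ± 262 in WT cultures (SD, n = 4 per strain), and RSM19, homologue of bacterial S19, 1279 ± 172 and 1252 ± 251. Neither passed the test. RSM19 read 994 and 1079 on WT replicates 1 and 4 but 1477 and 1458 on WT replicates 2 and 3.

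Signals did not overlap between the strains for 20 of the 22 called members, 18 of them higher and 2 lower. The exceptions were MRPL23 and MRPS17. Over all probe sets, the strains did not overlap for 19.1% in the higher and 20.5% in the lower direction, against 33.3% and 3.70% of the members.

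WT cultures differed among themselves in these genes. On WT replicates 1 and 4 the median member lay 0.13 and 0.16 below its mean over all arrays on the log2 scale (values -0.13 and -0.16). The deviation was 0.04 for WT replicate 2, -0.01 for WT replicate 3 and 0.01 to 0.10 for the CDC34tm arrays. CDC34tm replicate 3, at 0.01, thus lay below WT replicate 2. WT replicate 4 gave the lowest WT signal for 34 of the 54 genes and WT replicate 1 for 17, while WT replicate 2 gave the highest for 33. Over all probe sets these shares were 28.8% and 26.7% lowest and 28.5% highest. Heat shock genes, 22 in the list used, were high on the same cultures, with a median deviation of 0.64 for WT replicate 1 and 0.68 for WT replicate 4. It was -0.04 and 0.00 for the other WT cultures and -0.37 to -0.22 for the CDC34tm cultures. Between strains 15 of the 22 fell (68.2%) and 1 rose (4.55%), against 19.7% and 18.9% of all probe sets. The part of heat shock genes in the lower signals of the ribosomal genes was not tested.

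**Figure D3:**
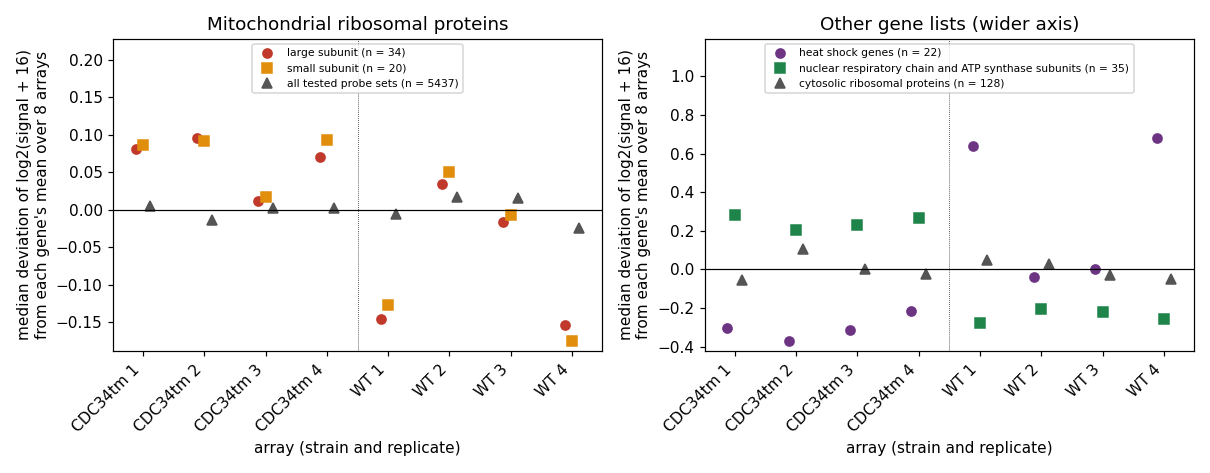
Median deviation of log2(signal + 16) from each gene's mean over 8 arrays (y axis) on each array (x axis), for the 2 subunits and all probe sets on the left and for other lists, on a wider axis, on the right. Both subunits are lowest on WT replicates 1 and 4 (-0.13 to -0.17), where heat shock genes are highest (0.64 and 0.68).

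The number of rises depended on these cultures. With WT replicates 1 and 4 left out, 9 of the 54 were called higher and 5 lower, the median being 0.06, against a background of 17.9% higher and 20.9% lower. With WT replicates 2 and 3 left out instead, 28 were higher and 2 lower, the median being 0.23, against 25.5% and 22.5%. Leaving out just 1 of CDC34tm replicates 1, 2 and 4 or WT replicates 1 and 4 gave 9 to 11 rises, with 13.9% to 16.8% of all probe sets higher. The falls added without WT replicates 1 and 4 were those of MRPL40, MRPL11 and RSM22. The 9 rises left were MRPL50, MRPL25, MRPL37, MRPL39, MRPL33, MRPL44, RSM18, RSM10 and MRPS28.

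Rises lay mostly among the short genes of the group. Of the 18 shortest members, from 213 to 477 bp in RefSeq, 11 rose and 0 fell, with a median log2 fold change of 0.26. Of the 18 in the middle, from 486 to 801 bp, 8 rose and 0 fell. Of the 18 longest, from 810 to 1887 bp, MRPS28 rose and MRPL4 and MRPL3 fell, and the median was 0.00. Across the 54 genes, which are not independent replicates and share the same arrays, the log2 fold change had a Spearman correlation of -0.57 with length.

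The rest of the array showed the same order by length. Of all 465 probe sets for genes in the length range of the 18 shortest members, 41.9% were higher and 11.4% lower, beside 61.1% and 0% of the members. For the middle range, with 856 probe sets, 274 were higher and 105 lower (12.3%), beside 44.4% and 0% of the members. For the longest range, with 2594, the shares were 14.1% and 21.5%, beside 5.56% and 11.1%. Members are a median of 707 bp long, against 1239 bp for all probe sets tested. After a correction for length on each array, 9 members rose (16.7%) and 3 fell, the median being 0.07, against a background of 18.6% higher and 19.5% lower. The share of rises was then close to that of all genes. The correction added MRPL10 to the rises and MRPL31 to the falls.

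**Figure D4:**
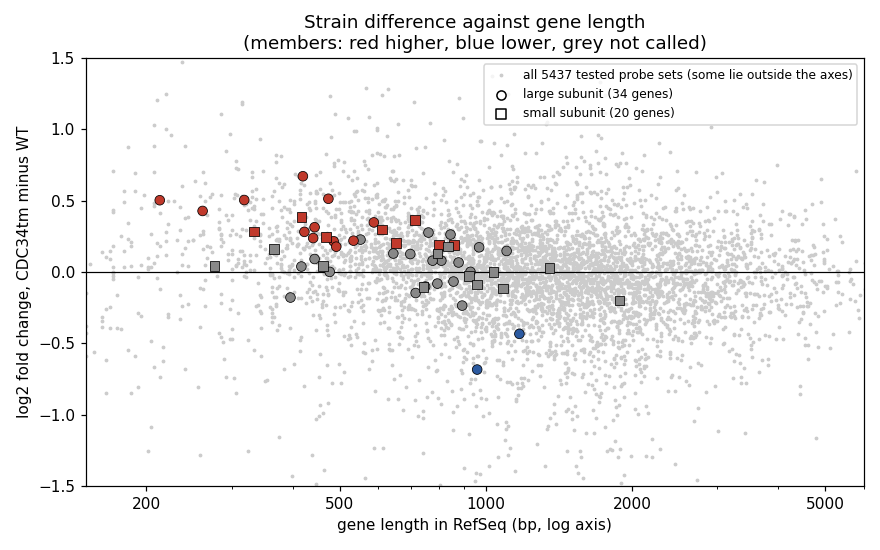
Log2 fold change (y axis, CDC34tm minus WT) against gene length in RefSeq (x axis, bp, log scale) for all probe sets (grey dots) and for large (circles) and small (squares) subunit genes. Rises, in red, lie mostly among the short genes, and the falls of MRPL4 (960 bp) and MRPL3 (1173 bp), in blue, among the long ones.

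Proteins with and without a homologue among bacterial ribosomal proteins were both among the rises. Of 33 proteins with a bacterial homologue, 12 rose and 1 fell (median 0.13), and of 21 without one, 8 rose and 1 fell (median 0.15). Within the large subunit the medians were 0.08 for 21 genes with a homologue and 0.26 for 13 without, and within the small subunit 0.18 for 12 and 0.01 for 8. Gene lengths ran the other way in these groups, with medians of 699, 474, 633 and 999 bp in the same order. Small subunit genes rose under either name, 4 of 9 MRPS (44.4%) and 4 of 11 RSM genes (36.4%).

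Ribosomal proteins of mitochondria that carry other symbols numbered 23, of which 6 rose (26.1%) and 2 fell (8.70%). Of 13 in the small subunit, 5 rose (38.5%) and 1 fell (7.69%). Of 10 in the large subunit, 1 rose and 1 fell (10% each). The shares over all probe sets were 18.9% higher and 19.7% lower. The rises included MRP2 (1.43-fold), SWS2 (1.37-fold) and FYV4 (1.36-fold) of the small subunit and RTC6 (1.27-fold), homologue of bacterial L36, of the large one. MRP4, homologue of bacterial S2, fell 1.39-fold, and MRP20 fell as given above. The median log2 fold change of these 23 genes was 0.07. After the length correction, in the small subunit 2 were called higher (15.4%) and 1 lower (7.69%). In the large subunit 0 were then higher and 3 lower (30%). The background after this correction was 18.6% higher and 19.5% lower.

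Of 13 mitochondrial aminoacyl-tRNA synthetase genes, which charge the tRNAs used by this ribosome, 0 rose and 6 fell (46.2%, against 19.7% of all probe sets). MSF1, for phenylalanine, read 257 ± 26.6 in CDC34tm against 480 ± 18.9 in WT (SD, n = 4 per strain) and fell 1.83-fold (limma adjusted p = 9.58e-05). MSR1, for arginine, fell 1.64-fold and MSK1, for lysine, 1.37-fold. The count of falls was 6 after the length correction, with 19.5% of all probe sets lower. Without WT replicates 1 and 4 it was 7, with 20.9% of all probe sets lower. Of 9 translation factor genes 1 rose (11.1%), GUF1 (1.24-fold), and 0 fell. Of 16 genes for activators of single mitochondrial mRNAs, 3 rose (CBP6, CBS1 and CBP1) and 3 fell (ATP22, PET494 and MSS51), 18.8% in each direction and so near the shares over all probe sets (18.9% and 19.7%). Of 14 genes for ribosome assembly, rRNA modification, transcription and RNA turnover, 2 rose (14.3%) and 0 fell. The rises were ABF2, which packages mitochondrial DNA, and PUS4, a pseudouridine synthase.

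Of 18 import genes, 5 rose and 5 fell (27.8% each, against 18.9% and 19.7% of all probe sets). The rises included TOM22 (1.18-fold), a receptor of the outer membrane, TOM6 (1.13-fold) and TIM21 (1.16-fold), the last of the inner membrane. Falls included TIM44 (1.66-fold), TIM50 (1.36-fold) and the matrix Hsp70 gene SSC1 (1.33-fold) of the inner membrane import path. After the length correction 0 of the import genes rose and 6 fell (33.3%), against 18.6% and 19.5% of all probe sets.

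Of 35 nuclear genes for subunits of the respiratory chain and ATP synthase, 30 rose (85.7%) and 0 fell. The shares over all probe sets were 18.9% higher and 19.7% lower. The 35 genes had a median length of 447 bp, and of all probe sets for genes of 213 to 477 bp 41.9% were higher. Their median log2 fold change was 0.46 for the 35 genes, and 29 of these rose after the length correction (82.9%, against 18.6% of all probe sets). COX7 and COX4, of cytochrome c oxidase, rose 1.84-fold and 1.77-fold, and ATP16, of the ATP synthase, 1.49-fold. Whether these genes differ from the ribosomal ones was not tested. The list of cytosolic ribosomal proteins, taken by symbol (RPL, RPS or RPP), held 128 genes, of which 4 rose (3.1%) and 0 fell (median 0.01). It includes RPP1, a subunit of RNase P and not a ribosomal protein, which was not called. After the length correction 2 rose and 22 fell (17.2%, against 19.5% of all probe sets). None of these 22 falls had been called before the correction. Paralog pairs in that list may share probe sets. Of 30 genes for making cytosolic ribosomes, 2 rose (6.67%, NOP15 and EBP2) and 0 fell.

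**Figure D5:**
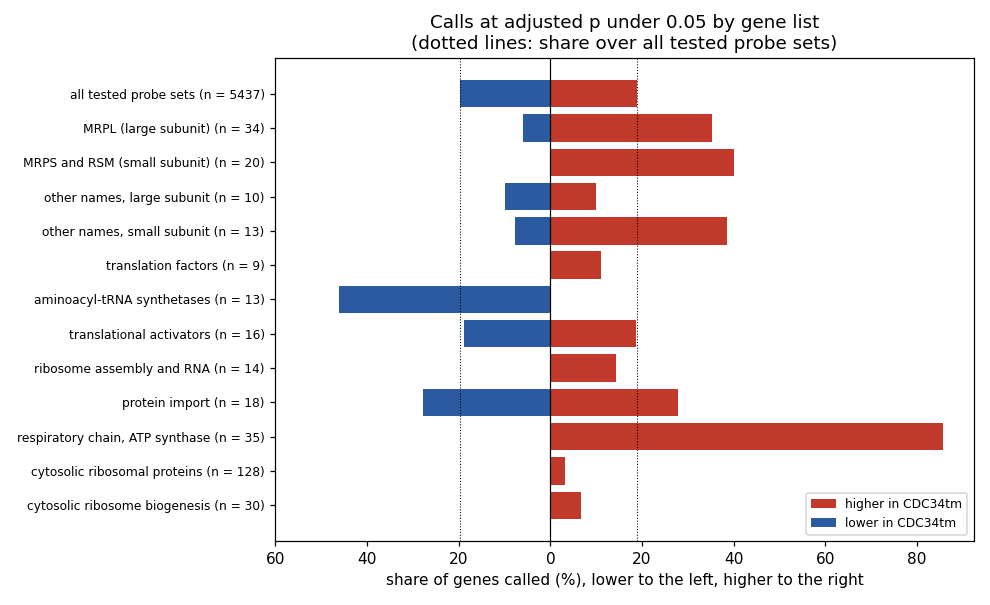
Share of each gene list (x axis, %) called higher (red, to the right) or lower (blue, to the left) in CDC34tm at adjusted p under 0.05, with dotted lines at the shares over all probe sets (18.9% and 19.7%). Respiratory chain genes have the highest share of rises, and aminoacyl-tRNA synthetase genes have 6 falls of 13.

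Of the regulators named above, PUF3 read 38.4 to 77.7 in CDC34tm and 64.9 to 121 in WT. The strains overlapped and the gene did not pass the test (log2 fold change -0.47, limma adjusted p = 0.0986). HAP4, the activating subunit of the Hap complex, read 489 ± 44.2 in CDC34tm against 971 ± 94.1 in WT (SD, n = 4 per strain) and fell 1.95-fold (limma adjusted p = 7.34e-05). HAP5 fell 1.69-fold and HAP2 1.28-fold, while HAP3 rose 1.35-fold. SFP1, an activator of cytosolic ribosome genes, fell 1.34-fold.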

How the data were processed

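Total RNA of 8 cultures was measured on Affymetrix Yeast 2.0 arrays. The deposited values are intensities (MAS5 signals, per the submitters' processing notes) on a linear scale. No MAS5 version or scaling target is given in the sources used here. A mean trimmed by 2% at each end came to nearly 1 value on all arrays, which hides any change in total mRNA. Gene names came from the platform table, and lengths and gene order from RefSeq R64. Coordinates, promoters and protein sequences were not used here.

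A probe set was tested when its signal exceeded the array's S. pombe background on at least 4 of 8 arrays. The fit was limma 3.58.1 in R 4.3.3 on log2(signal + 16), eBayes with a trend, two-sided, Benjamini-Hochberg over 5437 probe sets. Fold changes are on that scale, which understates changes of dim genes. The length correction took a loess curve (span 0.5) of signal deviation on log gene length off each array. Cultures were separate, and the 4 arrays per strain limit the precision.

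The fit was tested on simulated data. It recovered 18 of 50 probe sets changed 1.25-fold, 43 of 50 changed 1.5-fold and 48 of 50 changed 2-fold, with 10 false calls. Most of the probe sets changed 1.25-fold were thus missed in that run. It changed 50 of 5437 probe sets at each fold size, whereas the main fit called 1028 higher and 1072 lower. Whether its counts hold for the measured arrays was not tested. Of the members' called rises, 12 were under 1.25-fold. Members and lists were chosen with earlier results of these data known. Named genes are, per subunit, up to 8 largest called rises, up to 5 largest called falls and the 2 genes nearest 0, those whose call depends on single arrays, and up to 3 called genes per list and direction. Others were named after their values were seen.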

Additional observations from a re-analysis of the deposited data

Results flagged for a closer look

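In 3 of the 108 groups of 4 cultures (54 genes in 2 strains), 1 culture stood apart from the other 3 by Dixon's criterion, which chance meets in about 1 in 20 groups. MRPL8 read 1177 on CDC34tm replicate 2 against 1384 to 1429 on the others. RSM18 read 2874 on CDC34tm replicate 3 against 3116 to 3139 on the others, and stayed called under all alternatives. RSM28 read 991 on CDC34tm replicate 2 against 900.1 to 912 on the others. MRPL8 and RSM28 were not called.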

How the results depend on the processing

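Changing the pseudocount to 1 or 64, the filter on dim probe sets or the eBayes trend left the counts of members at 20 higher and 2 lower. Quantile normalization gave 23 and 2. Of the members' calls under 19 alternatives, 910 of 1026 stayed on their side of the threshold, 86 were lost and 30 gained, and none turned direction. The 1026 include genes not called in the main fit, which had no call to lose. Of the 20 rises and 2 falls, 9 calls held under all 19. Without single arrays, 9 to 21 members were higher and 2 lower, 7 to 14 in the large and 2 to 8 in the small subunit. The count was 11, 10 and 9 without CDC34tm replicate 1, 2 and 4, and 10 and 11 without WT replicate 1 and 4. The length correction left 9 higher (6 large, 3 small). Leaving out WT replicates 1 and 4 left 9 higher (6 large, 3 small) and 5 lower (4 large, 1 small), with a median of 0.056. Leaving out WT replicates 2 and 3 gave a median of 0.23. With the replicate block, 16 members were higher, 4 of them in the small subunit, against 17.9% of all probe sets higher. The replicate numbers are not said to pair the cultures. Correlations of deviations between same-numbered arrays were 0.04, 0.23, -0.08 and 0.06, and those between differently numbered arrays ran from -0.26 to 0.19. The cause of the changed counts was not tested, and leaving out arrays also lowers their number. The large minus small difference of -0.01 became 0.0331 under quantile normalization, -0.0266 after the length correction and 0.0111 without WT replicates 1 and 4, and ran from -0.0183 to 0.0358 without single arrays, so its sign is not settled. The 4 arrays per strain limit the detection of small changes.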
